A study of Mus musculus with 10 samples.

Results

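The RNA of whole mouse uteri was examined here for 34 genes that carry glucose into cells, break it down to pyruvate and lactate, export lactate, and build or degrade glycogen. They were listed by gene symbol and role, with no threshold on a measured value, and comprised 5 glucose transporters, 18 genes of the glycolytic steps and their control, 6 genes that handle lactate and pyruvate, and 5 glycogen enzymes. All 34 were found by Ensembl identifier among the 45706 genes listed, and all 34 were among the 25146 genes tested, which were those averaging at least 1 count per uterus.

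Glucose enters most cells through facilitative transporters of the SLC2 (GLUT) family and is trapped by hexokinases. The glycolytic enzymes then split it and yield pyruvate. Lactate dehydrogenase turns pyruvate into lactate for export through the monocarboxylate transporters. Pyruvate is otherwise oxidized in the mitochondria, a step that pyruvate dehydrogenase kinases restrain. The endometrium also stores glucose as glycogen, and decidualization of the stroma, for which the uterus prepares at this time, relies on glucose uptake.

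The study compared uteri of *Arid1a f/f* mice (control, n = 5) with those of *Ltf iCre/+ Arid1a f/f* mice (hereafter Cre uteri, n = 5), all from intact adult females on gestation day (GD) 3.5, counted from the vaginal plug. Both genotypes carried the floxed *Arid1a* alleles, which encode a subunit of the SWI/SNF chromatin remodeling complex, on a mixed background of C57BL/6, 129S6/SvEvTac, 129P2/OlaHsd and 129S1/SvImJ. In the *Ltf iCre/+* mice 1 copy of the lactoferrin (*Ltf*) locus drives Cre recombinase in the endometrial epithelium of mature females. Stroma, muscle and vessels are not targeted. Neutrophils also make lactoferrin, and the authors cite reports of *Ltf-iCre* expression in neutrophils and other myeloid cells. The Cre insertion went with the deletion in every Cre uterus, so the contributions of the 2 cannot be told apart.

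Between 65351817 and 72702411 counts were assigned to genes in control uteri and between 59296537 and 67990486 in Cre uteri. Expression is given as CPM, that is, counts relative to the library size as normalized by edgeR's TMM method. The targeted gene, *Arid1a*, had 213 ± 22.9 CPM (SD, n = 5) in control and 185 ± 15.9 CPM (SD, n = 5) in Cre uteri, with 4 of the 5 Cre uteri below every control and the adjusted p was 0.201 (edgeR quasi-likelihood test, Benjamini-Hochberg adjustment over all genes, as throughout). These totals cover every exon and every cell type of the uterus. Of the 25146 genes tested, 9.70% passed an adjusted p of 0.05 by that test (5.19% higher and 4.51% lower in Cre uteri). Cre replicates 1 and 5 stood apart from the other Cre uteri in many of the 34 genes, and Cre replicate 5 alone held 932 CPM of 8 neutrophil genes against 17.2 to 34.8 CPM in the other 9 uteri. The 8 of the 34 genes that passed the test are therefore also given without Cre replicate 5 or without both, as are several of the others.

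Of the 34 genes, 8 (23.5%) passed the quasi-likelihood test of edgeR (adjusted p under 0.05), beside 9.70% of all tested genes. The 5 that fell were the transporters *Slc2a3* and *Slc2a12*, the glycolytic activator *Pfkfb3* and the glycogen enzymes *Gbe1* and *Pygm*. The 3 that rose were the enolase *Eno1*, the lactate dehydrogenase *Ldha* and the lactate exporter *Slc16a3*. The CPM values of the genotypes did not overlap in 10 of the 34 genes (29.4%), beside 10.7% of all tested genes. With *Slc2a8* added 6 were lower (5.16% of all tested genes), and with *Tpi1* added 4 were higher (5.53%). DESeq2, a more permissive test here, called 14 of the 34 genes, beside 16.3% of all tested genes. They were 7 of the 8 that passed edgeR's test, all but *Slc16a3*, and *Slc2a8*, *Hk3*, *Pfkm*, *Tpi1*, *Pgk1*, *Pdk1* and *Pygl*. The median log2 fold change over the 34 genes was -0.03, against 0.03 over all tested genes, with 14 values above 0 and 20 below. By role, 2 of 5 transporters fell (median log2 fold change -0.60) and 2 of 5 glycogen enzymes fell (median -0.36). Among the lactate and pyruvate genes 2 of 6 rose (median 0.23), and among the 18 glycolytic genes 1 rose and 1 fell (median 0.12).

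**Figure D1:**
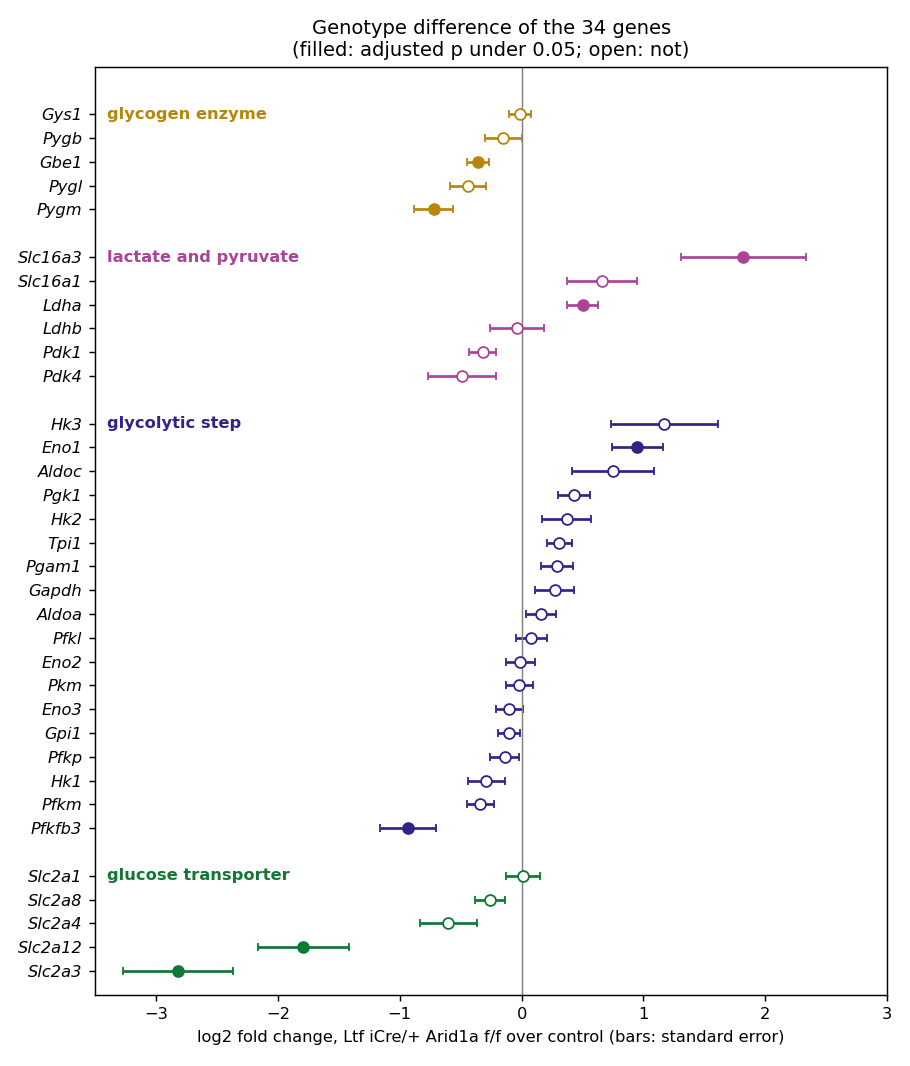
Log2 fold change of each of the 34 genes (x axis, Cre uteri over control, 5 uteri each), grouped by role and sorted within it, with bars for the standard error and filled points for an adjusted p under 0.05. The values run from -2.82 for *Slc2a3* to 1.82 for *Slc16a3*. All 5 glycogen enzymes lie below 0, and 4 of the 5 transporters do, as do 11894 of the 25146 tested genes.

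Because whole uteri were sequenced, fewer cells of a type and less RNA per cell cannot be told apart. The makeup of the RNA differed between the genotypes in fixed sets of marker genes. All 6 endothelial markers fell, and their summed level was 689 to 962 CPM in control and 317 to 477 CPM in Cre uteri. Of 11 epithelial markers 7 rose, with sums of 937 to 1263 CPM in control and 1333 to 2743 CPM in Cre uteri. Of 7 gland markers 1, *Foxa2*, fell, while the sums were 78.3 to 125 CPM in control and 13.3 to 51.4 CPM in Cre uteri. Among 7 stromal markers 2 fell (*Dcn* and *Vim*), with overlapping sums of 14477 to 21574 CPM and 11947 to 21678 CPM. None of the 7 smooth muscle markers passed edgeR's test (1 had an unadjusted p under 0.05 and DESeq2 called 1), and their sums were 6497 to 11407 CPM in control and 3398 to 9153 CPM in Cre uteri. Red cell markers (0 of 5 called by either tool, none with an unadjusted p under 0.05 in edgeR's test) summed to 20.7 to 78.9 CPM in control and 21.1 to 101 CPM in Cre uteri, and adipocyte markers to at most 1.44 CPM in any uterus. The part of these differences in the results on glucose genes was not tested.

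The sequences upstream of the genes that differed were read from RefSeq on GRCm38.p6, as the 250 bases before an annotated transcript start. They were available for 7 of the 8 genes, all but *Slc2a3*. The motifs searched, on both strands, were ACGTG, the core bound by hypoxia-inducible factors, CACGTG, the E-box bound by MYC and MLX family factors, which always contains ACGTG on each strand, AGAACA, a core bound by progesterone and glucocorticoid receptors, and the GC box GGGCGG. Over all 32851 upstream windows of this length, ACGTG occurred in 16.6%, CACGTG in 6.02%, AGAACA in 16.1% and GGGCGG in 32.7%. The windows of *Ldha* and *Slc16a3*, which rose, and of *Slc2a12*, *Pfkfb3* and *Pygm*, which fell, are shown because they span the range from none to 5 copies of ACGTG. Letters in capitals mark ACGTG or CACGTG or the reverse complement, and genes with more than 1 listed start are represented by the first. The windows lie at chr7:46845554-46845803 (plus strand) for *Ldha*, chr11:120948817-120949066 (plus strand) for *Slc16a3*, chr10:22644761-22645010 (plus strand) for *Slc2a12*, chr2:11553930-11554179 (minus strand) for *Pfkfb3* and chr19:6384158-6384407 (plus strand) for *Pygm*.
Ldha: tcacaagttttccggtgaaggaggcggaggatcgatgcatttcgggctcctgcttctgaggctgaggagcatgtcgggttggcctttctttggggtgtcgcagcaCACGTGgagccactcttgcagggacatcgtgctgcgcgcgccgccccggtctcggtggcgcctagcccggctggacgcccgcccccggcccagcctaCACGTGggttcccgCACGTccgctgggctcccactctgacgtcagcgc
Slc16a3: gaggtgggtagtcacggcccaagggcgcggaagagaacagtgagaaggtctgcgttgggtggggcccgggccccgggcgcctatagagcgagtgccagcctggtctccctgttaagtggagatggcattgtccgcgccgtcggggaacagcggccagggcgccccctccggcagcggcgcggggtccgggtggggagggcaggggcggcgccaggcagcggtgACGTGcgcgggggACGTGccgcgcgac
Slc2a12: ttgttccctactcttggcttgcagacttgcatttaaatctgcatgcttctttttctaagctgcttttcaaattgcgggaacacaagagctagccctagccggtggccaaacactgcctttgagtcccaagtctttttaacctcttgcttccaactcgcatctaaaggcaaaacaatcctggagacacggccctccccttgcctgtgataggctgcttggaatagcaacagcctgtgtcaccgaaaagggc
Pfkfb3: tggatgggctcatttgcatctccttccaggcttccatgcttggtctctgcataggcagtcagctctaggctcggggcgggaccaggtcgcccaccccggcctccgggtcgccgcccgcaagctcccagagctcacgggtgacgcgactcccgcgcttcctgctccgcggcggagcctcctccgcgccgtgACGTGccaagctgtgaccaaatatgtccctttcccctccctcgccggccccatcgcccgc
Pygm: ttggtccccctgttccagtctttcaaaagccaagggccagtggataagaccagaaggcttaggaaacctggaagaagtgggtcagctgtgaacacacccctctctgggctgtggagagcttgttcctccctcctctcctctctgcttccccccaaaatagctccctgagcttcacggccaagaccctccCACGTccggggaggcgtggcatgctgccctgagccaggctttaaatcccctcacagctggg
The *Ldha* window held 5 copies of ACGTG, counted over both strands, within 2 E-boxes and 1 further site, and the *Slc16a3* window held 2 copies and no E-box. The *Pfkfb3* and *Pygm* windows held 1 copy each, while the *Slc2a12* window held none, nor did the windows of *Gbe1* and of the 3 *Eno1* starts. A second start of *Pfkfb3* had 2 copies in 1 E-box and a second start of *Ldha* had none, so genes that rose and genes that fell were found both with and without the core in these windows. AGAACA was found once, upstream of *Slc16a3*. GGGCGG stood in the windows of *Ldha*, *Slc16a3* and *Pfkfb3* shown, and not in those of *Slc2a12* and *Pygm*. A match is a run of letters and was not tested for binding.

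The glucose transporters were lower as a set of transcripts, and the fall lay in *Slc2a3* and *Slc2a12*. *Slc2a3* (ENSMUSG00000003153, chromosome 6, 122727809 to 122801640, minus strand) encodes GLUT3, a high-affinity glucose transporter. It had 487, 300.0, 291, 354 and 351 CPM in control replicates 1 to 5, and 12.3, 77.6, 50.6, 85.2 and 26.5 CPM in Cre replicates 1 to 5. Every Cre uterus lay far below every control, and Cre replicates 1 and 5 were the lowest. In edgeR's quasi-likelihood fit the log2 fold change was -2.82 (standard error, SE, 0.45, adjusted p = 0.00421), which is 7.07 times more in controls. Without Cre replicates 1 and 5 it was -2.33 (adjusted p = 0.000207 in edgeR's test), and the call held with each uterus left out in turn.

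*Slc2a12* (ENSMUSG00000037490, chromosome 10, 22645011 to 22704285, plus strand) encodes GLUT12, a transporter related to the insulin-sensitive ones. It had 138, 239, 154, 186 and 241 CPM in control replicates 1 to 5 and 20.2, 75.7, 76.1, 76.8 and 27.7 CPM in Cre replicates 1 to 5. The genotypes did not overlap, and Cre replicates 1 and 5 again lay below the other 3, which were nearly equal to one another. Controls had 3.46 times more, a log2 fold change of -1.79 (SE 0.37, edgeR adjusted p = 0.0131), and it was -1.33 without Cre replicates 1 and 5 (adjusted p = 0.00159 in edgeR's test). The call held with each uterus left out. Of the merged exon length of *Slc2a12*, 9.61% overlaps exons of *Tbpl1* on the opposite strand, and whether the counting used strand is not given in the sources used here.

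*Slc2a1*, which encodes the widely expressed GLUT1, was at 33.5 ± 3.25 CPM (SD, n = 5) in control and 33.8 ± 7.13 CPM (SD, n = 5) in Cre uteri, a log2 fold change of 0.01 (SE 0.14). Its sign turned when single uteri were left out, within -0.12 to 0.07. *Slc2a8*, an intracellular transporter, had 7.89, 10.1, 8.71, 8.44 and 9.12 CPM in control replicates 1 to 5 and 7.65, 7.66, 7.19, 7.20 and 7.10 CPM in Cre replicates 1 to 5. All Cre values thus lay below the controls, within a narrow span, but the log2 fold change of -0.26 (SE 0.12) did not pass the test (edgeR adjusted p = 0.171). *Slc2a4*, the insulin-responsive GLUT4, was at 22.1 ± 6.29 CPM in control and 14.6 ± 4.38 CPM in Cre uteri (SD, n = 5 each) with overlapping values and an edgeR adjusted p of 0.130.

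To compare transporters with each other, CPM was divided by the merged exon length in kb. The 5 transporters together had 95.4 to 122 CPM per kb in control and 21.1 to 45.9 CPM per kb in Cre uteri, without overlap. *Slc2a3* made up 34.4 to 58.0% of this sum in control and 8.02 to 25.8% in Cre uteri. The share of *Slc2a12* overlapped, at 28.2 to 46.9% and 22.6 to 45.0%. *Slc2a1* made up 6.60 to 10.5% of the sum in control and 19.2 to 46.6% in Cre uteri while its own level was nearly the same, and in Cre replicates 1 and 5 it was the most abundant of the 5 per kb. The log2 ratio of *Slc2a3* to *Slc2a1* CPM within a uterus was 3.39 ± 0.37 in control and 0.28 ± 1.2 in Cre uteri (SD, n = 5 each). The difference of -3.11 had an exact permutation p of 0.00794 (two-sided), the smallest that 5 uteri against 5 allow, and 0.0317 after adjustment over the 12 ratios computed. The adjusted p of this exact permutation test was 0.0635 without control replicate 5 and passed with any other uterus left out.

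**Figure D2:**
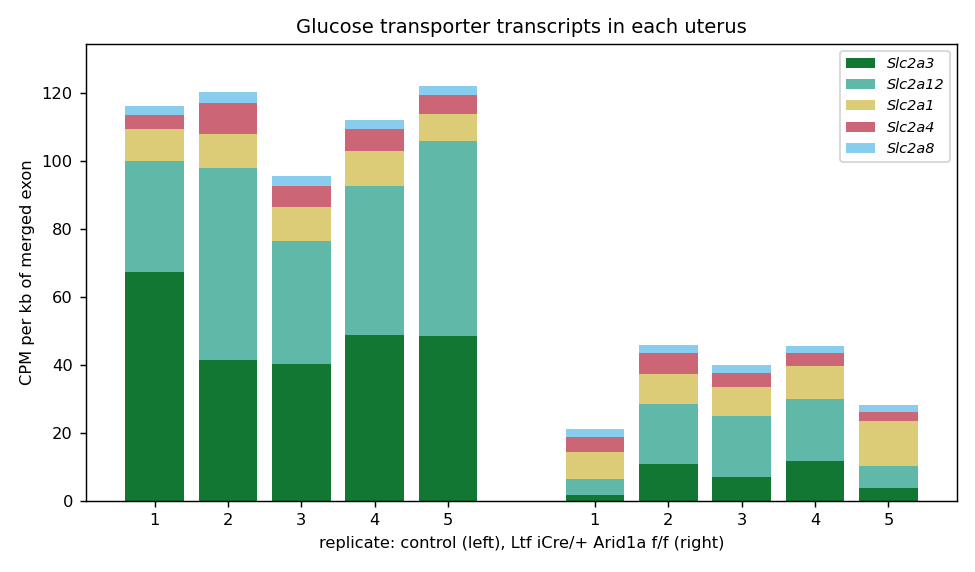
Stacked bars give CPM per kb of merged exon of the 5 glucose transporters in each of the 10 uteri (x axis, controls left, Cre uteri right). The totals of 95.4 to 122 in controls stand above the 21.1 to 45.9 of the Cre uteri, and the *Slc2a3* and *Slc2a12* segments shrink while the *Slc2a1* segment stays similar.

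Most of the glycolytic steps showed no difference that passed edgeR's test. It called 2 of the 18 genes (11.1%), beside 9.70% of all tested genes. DESeq2 called 6 of the 18, beside 16.3% of all tested genes. The hexokinases, which phosphorylate glucose, summed to 18.5 to 25.7 CPM per kb in control and 19.9 to 28.7 CPM per kb in Cre uteri, and *Hk1*, *Hk2* and *Hk3* had log2 fold changes of -0.29, 0.37 and 1.17, all with an adjusted p over the threshold. Without Cre replicates 1 and 5 these were -0.23, 0.11 and 0.65, and *Hk3* was at 0.53 without replicate 5 alone. *Hk3*, a hexokinase of myeloid cells, was at 1.66 to 3.09 CPM in control and 2.74 to 5.72 CPM in Cre replicates 1 to 4 but at 13.9 CPM in Cre replicate 5, the uterus with 932 CPM of neutrophil markers and the highest sum of the 8 macrophage markers (674 CPM, against 281 to 380.0 CPM in the other Cre uteri and 158 to 329 CPM in controls). Of the 8 neutrophil markers 2 rose (*Ly6g* and *Mmp8*) and of the 8 macrophage markers 0 passed edgeR's test, with 3 at an unadjusted p under 0.05 and 1 called by DESeq2. Their part in the *Hk3* value was not tested. *Gpi1*, the isomerase that follows, was at 232 ± 19.0 CPM in control and 217 ± 20.5 CPM in Cre uteri (SD, n = 5 each).

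Phosphofructokinase commits the sugar to glycolysis. Its 3 genes together had 25.8 to 31.8 CPM per kb in control and 25.6 to 28.8 CPM per kb in Cre uteri. *Pfkm*, the muscle type, was at 58.0 ± 4.15 CPM in control and 45.8 ± 6.92 CPM in Cre uteri (SD, n = 5 each), and its log2 fold change of -0.34 missed the threshold (adjusted p = 0.0677 in edgeR's test), while *Pfkl* (0.08) and *Pfkp* (-0.14) lay near 0. The log2 ratio of *Pfkl* to *Pfkm* was 0.11 ± 0.10 in control and 0.54 ± 0.44 in Cre uteri (SD, n = 5 each), a difference of 0.42 with an exact permutation p of 0.0159 (0.0381 adjusted over 12 ratios). The call was lost when any 1 control was left out (exact permutation, adjusted p = 0.206 to 0.259). The values overlapped, and the highest were those of Cre replicates 5 (1.13) and 1 (0.89).

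*Pfkfb3* (ENSMUSG00000026773, chromosome 2, 11471433 to 11554077, minus strand) encodes the kinase that makes the strongest activator of phosphofructokinase. It had 391, 324, 310.3, 370.2 and 289 CPM in control replicates 1 to 5 and 105, 242, 199, 223 and 115 CPM in Cre replicates 1 to 5. No Cre uterus reached the lowest control, and the lowest 2 were again Cre replicates 1 and 5. Controls had 1.90 times more, with a log2 fold change of -0.93 (SE 0.23, edgeR adjusted p = 0.0264), and -0.60 (adjusted p = 0.0101 in edgeR's test) without Cre replicates 1 and 5. The call was lost when control replicate 1, 2, 3 or 4 was left out (adjusted p = 0.0531 to 0.0614 in edgeR's test).

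Between aldolase and pyruvate kinase only enolase held a gene that passed edgeR's test. *Aldoa* (log2 fold change 0.16), *Tpi1* (0.31), *Gapdh* (0.27), *Pgk1* (0.43) and *Pgam1* (0.29) had values above 0 without passing edgeR's test, and *Pkm*, the pyruvate kinase, had -0.02. DESeq2's test called 2 of these, *Tpi1* (adjusted p = 0.0422) and *Pgk1* (adjusted p = 0.0264). Without Cre replicates 1 and 5 the 5 values were 0.02, 0.20, 0.03, 0.24 and 0.13. *Tpi1*, triosephosphate isomerase, had 209, 230.3, 217, 223 and 189 CPM in control replicates 1 to 5 and 314, 271, 235, 231 and 272 CPM in Cre replicates 1 to 5. These did not overlap, by a margin of under 1 CPM, and the adjusted p was 0.0758 in edgeR's test. *Pgk1*, phosphoglycerate kinase, was above every control in 4 of 5 Cre uteri and gave edgeR adjusted p = 0.0562. *Aldoc*, a minor aldolase here, supplied at most 1.24% of the aldolase transcripts per kb in any uterus.

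*Eno1* (ENSMUSG00000063524, chromosome 4, 150236721 to 150248879, plus strand), the enolase of most tissues, was the 1 glycolytic enzyme that rose in edgeR's test. It had 94.1, 61.4, 62.7, 57.7 and 48.3 CPM in control replicates 1 to 5 and 174, 106, 94.7, 103 and 151 CPM in Cre replicates 1 to 5. The genotypes did not overlap, but control replicate 1 came close to Cre replicate 3, and with DESeq2's size factors in place of TMM they overlapped. The rise was 1.94-fold, or 0.95 on the log2 scale (SE 0.21, edgeR adjusted p = 0.0169), which was 0.64 without Cre replicates 1 and 5 (adjusted p = 0.0408) and lost the call without control replicate 2 (adjusted p = 0.0508, both in edgeR's test). *Eno2*, the neuronal enolase, and *Eno3*, the muscle enolase, had log2 fold changes of -0.01 and -0.10. *Eno1* accordingly made up 41.4 to 57.5% of enolase transcripts per kb in control and 58.1 to 75.8% in Cre uteri. The log2 ratios of *Eno2* and of *Eno3* to *Eno1* differed by -0.96 and -1.05 between the genotypes without overlap (exact permutation p = 0.00794 each, 0.0317 adjusted over 12 ratios). In the same exact permutation test the adjusted p was 0.0635 for *Eno2* to *Eno1* without control replicate 5, and for *Eno3* to *Eno1* without control replicate 2, 3, 4 or 5.

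Reads of *Eno1* can match a near-identical copy. Of the 50-base stretches of its longest coding transcript, 70.5% occur also in *Eno1b*, so a read from such a stretch does not tell the 2 genes apart. *Eno1b* had 11.2, 12, 11.4 and 9.14 CPM in control replicates 2 to 5, but 0.308 CPM in control replicate 1 and 0.253 to 0.579 CPM in the Cre uteri, so control replicate 1 resembled the Cre uteri. With the counts of both genes added, control uteri had 73.7 ± 13.4 CPM and Cre uteri 126 ± 34.8 CPM (SD, n = 5 each). The difference in mean log2 CPM was then 0.75 with an exact permutation p of 0.00794. The genotypes were narrowly apart, at up to 94.4 CPM in controls (replicate 1) and from 95.1 CPM in Cre uteri. With DESeq2's size factors *Eno1* alone overlapped. The sum holds only reads that were counted, and reads matching both genes may not have been. It therefore cannot settle the effect of the shared stretches. Similar sharing affected *Gapdh* (82.5% of stretches shared with other annotated genes), *Pgk1* (68.0%), *Pgam1* (41.5%), *Pkm* (34.4%), *Ldhb* (27.0%), *Gpi1* (19.3%), *Ldha* (16.6%) and *Aldoa* (13.5%), whose counts are uncertain in this respect. *Slc2a3*, *Slc2a12*, *Slc16a3* and *Gbe1* shared none.

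The lactate branch was higher at *Ldha* and *Slc16a3*. *Ldha* (ENSMUSG00000063229, chromosome 7, 46841475 to 46855627, plus strand) encodes the lactate dehydrogenase subunit typical of lactate-producing tissue. It had 309.7, 367, 359, 334 and 278 CPM in control replicates 1 to 5 and 616, 450.1, 402, 427 and 428 CPM in Cre replicates 1 to 5. All Cre uteri were above all controls, and Cre replicate 1 was the highest by far. It rose 1.41-fold, or by 0.50 on the log2 scale (SE 0.13, edgeR adjusted p = 0.0358). Without Cre replicates 1 and 5 the value was 0.37 (edgeR adjusted p = 0.0483), and the call was lost when any 1 of the 5 controls was left out (adjusted p = 0.0557 to 0.0764 in edgeR's test). *Ldhb*, the other subunit, was at 79.3 ± 10 CPM in control and 76.9 ± 31.2 CPM in Cre uteri (SD, n = 5 each), with 131 CPM in Cre replicate 5 and 54.9 to 76.0 CPM in the others. Its log2 fold change was -0.04, and -0.34 without Cre replicates 1 and 5. The log2 ratio of *Ldhb* to *Ldha* differed by -0.60 between the genotypes, which was not past the threshold (exact permutation p = 0.0635).

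*Slc16a3* (ENSMUSG00000025161, chromosome 11, 120948480 to 120960868, plus strand) encodes MCT4, the exporter of lactate-producing cells. It was low, at 4.20, 4.24, 4.42, 3.92 and 3.40 CPM in control replicates 1 to 5, and at 6.48, 8.25, 7.26, 7.22 and 42.2 CPM in Cre replicates 1 to 5. Every Cre uterus was above every control, and Cre replicate 5 was over 5 times the next highest. On the log2 scale the difference was 1.82 (SE 0.51, edgeR adjusted p = 0.0462), and it was 0.86 without Cre replicate 5 (adjusted p = 0.00680 in edgeR's test). Leaving out any 1 control lost the call (adjusted p = 0.0844 to 0.101 in edgeR's test). Cre replicate 5 was also the uterus with 932 CPM of neutrophil markers, and the other 4 Cre uteri had 19.4 to 33.4 CPM, against 17.2 to 34.8 CPM in controls. Among these markers, *Mmp8* was above every control in 5 Cre uteri and *Ly6g* in 4, but *Mmp8* was only at 0.110 to 0.247 CPM in Cre replicates 1 to 4. *Csf3r* was above every control in 2 Cre uteri, and *S100a8*, *S100a9*, *Cxcr2*, *Retnlg* and *Mmp9* in 1. *Cxcr2* was below every control in 3 Cre uteri and *Mmp9* in 2. By flow cytometry the authors found similar neutrophil numbers in both genotypes. The part of neutrophil RNA in the *Slc16a3* levels was not tested. *Slc16a1*, which encodes the widely expressed MCT1, was at 45.9 ± 6.83 CPM in control and 72.7 ± 40.0 CPM in Cre uteri (SD, n = 5 each), with 141 CPM in Cre replicate 1 and an adjusted p of 0.169 in edgeR's test. Its log2 fold change of 0.66 was 0.14 without Cre replicates 1 and 5. Per kb *Slc16a1* exceeded *Slc16a3* in every uterus, with 66.8 to 96.3% of their sum in Cre uteri and 92.0 to 93.9% in controls.

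The pyruvate dehydrogenase kinases *Pdk1* and *Pdk4*, which restrain the oxidation of pyruvate in the mitochondria, had log2 fold changes of -0.32 and -0.49. *Pdk1* was at 44.9 ± 4.52 CPM in control and 35.9 ± 4.43 CPM in Cre uteri (SD, n = 5 each), and 4 of 5 Cre uteri were below every control (adjusted p = 0.0765 in edgeR's test). *Pdk4* overlapped widely, at 4.42 to 9.69 CPM in control and 2.50 to 6.73 CPM in Cre uteri.

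**Figure D3:**
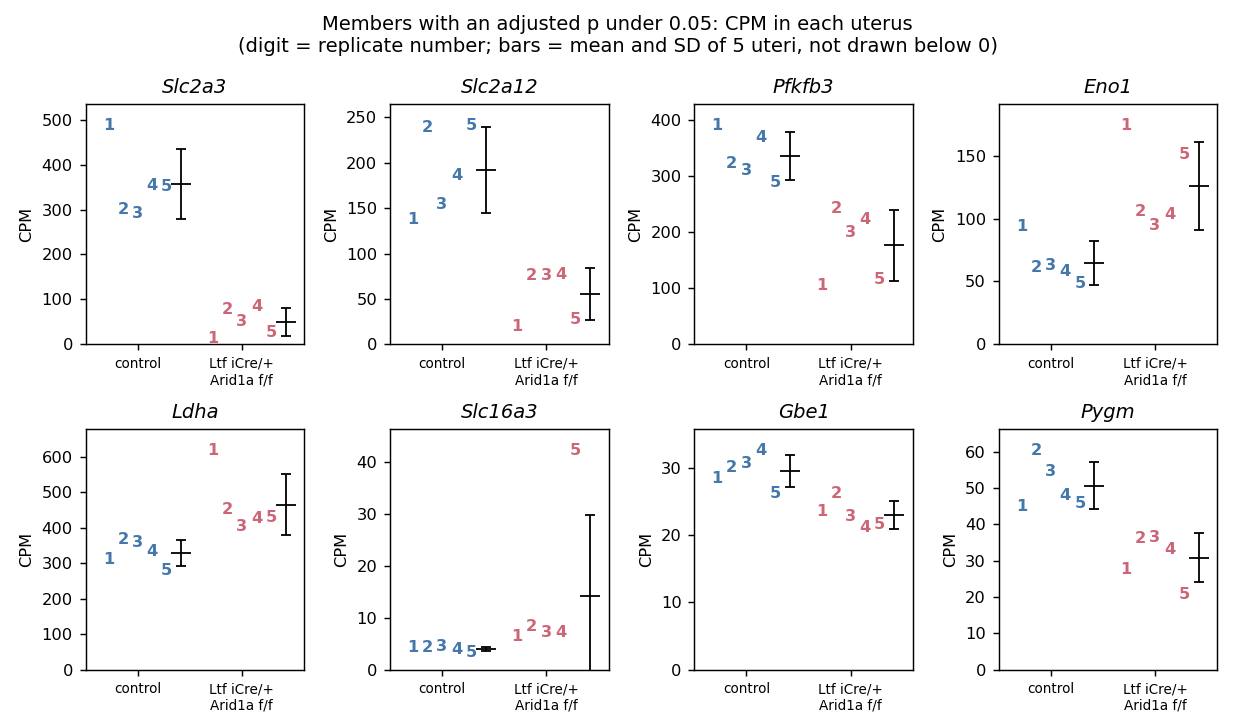
CPM (y axes, from 0) of the 8 genes with an adjusted p under 0.05 in each uterus, drawn as its replicate number, beside the mean and SD of 5 uteri per genotype (an SD that reaches below 0 is cut at the axis). The genotypes do not overlap in any of the 8 panels, and Cre replicates 1 and 5 are the lowest for *Slc2a3*, *Slc2a12*, *Pfkfb3* and *Pygm*.

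All 5 glycogen enzymes had log2 fold changes below 0, as had 11894 of the 25146 tested genes. That of *Gys1* was -0.01 and turned with single uteri left out. The branching enzyme and the muscle phosphorylase fell. *Gbe1* (ENSMUSG00000022707, chromosome 16, 70313949 to 70569716, plus strand), which adds branches to the growing polymer, had 28.4, 30.0, 30.7, 32.5 and 26.2 CPM in control replicates 1 to 5 and 23.5, 26.2, 22.7, 21.1 and 21.5 CPM in Cre replicates 1 to 5. Control replicate 5 and Cre replicate 2 were equal to 3 digits at 26.2 CPM, and the genotypes overlapped with DESeq2's size factors. Controls had 1.29 times more, a log2 fold change of -0.36 (SE 0.09, edgeR adjusted p = 0.0315). The call was lost without control replicate 2, 3 or 4, without Cre replicate 3, 4 or 5, and without Cre replicates 1 and 5 together, where the log2 fold change was -0.34 (adjusted p = 0.0520 to 0.0840 in edgeR's test). *Gys1*, glycogen synthase, was at 39.6 ± 4.62 CPM in control and 39.4 ± 2.90 CPM in Cre uteri (SD, n = 5 each).

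*Pygm* (ENSMUSG00000032648, chromosome 19, 6384399 to 6398459, plus strand), the phosphorylase best known from muscle, releases glucose units from glycogen. It had 44.9, 60.2, 54.6, 48.0 and 45.7 CPM in control replicates 1 to 5 and 27.6, 36.2, 36.4, 33.2 and 20.6 CPM in Cre replicates 1 to 5. The genotypes were clearly apart, with Cre replicates 5 and 1 the lowest. It was 1.65 times more abundant in controls, with a log2 fold change of -0.72 (SE 0.16, edgeR adjusted p = 0.0164), and -0.52 (adjusted p = 0.0134 in edgeR's test) without Cre replicates 1 and 5, and the call held with each uterus left out. Of 9 skeletal muscle markers, 3 (*Myh1*, *Myh2*, *Myh4*) were under the count filter and 1 (*Ckm*) fell. Of the 6 tested, 5 had log2 fold changes below 0, as had 11894 of the 25146 tested genes. In edgeR's test 3 of the 6 had an unadjusted p under 0.05, and DESeq2 called 3. Their summed level was 80.3 to 231 CPM in control and 69.2 to 116 CPM in Cre uteri, most of it *Acta1*. The part of muscle RNA in the *Pygm* result was not tested. *Pygl*, the liver type, was at 59.8 ± 5.64 CPM in control and 44.0 ± 9.82 CPM in Cre uteri (SD, n = 5 each) with an adjusted p of 0.0878 in edgeR's test, and *Pygb*, the brain type, was at 192 ± 22.7 CPM and 173 ± 40.4 CPM. Per kb *Pygb* was the main phosphorylase, with 58.0 to 64.3% of the sum in control and 63.9 to 78.0% in Cre uteri. The log2 ratio of *Pygm* to *Pygb* differed by -0.57 between the genotypes (exact permutation p = 0.0159, 0.0381 adjusted over 12 ratios), a call that was lost when any 1 control was left out (adjusted p = 0.0714 to 0.119).

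**Figure D4:**
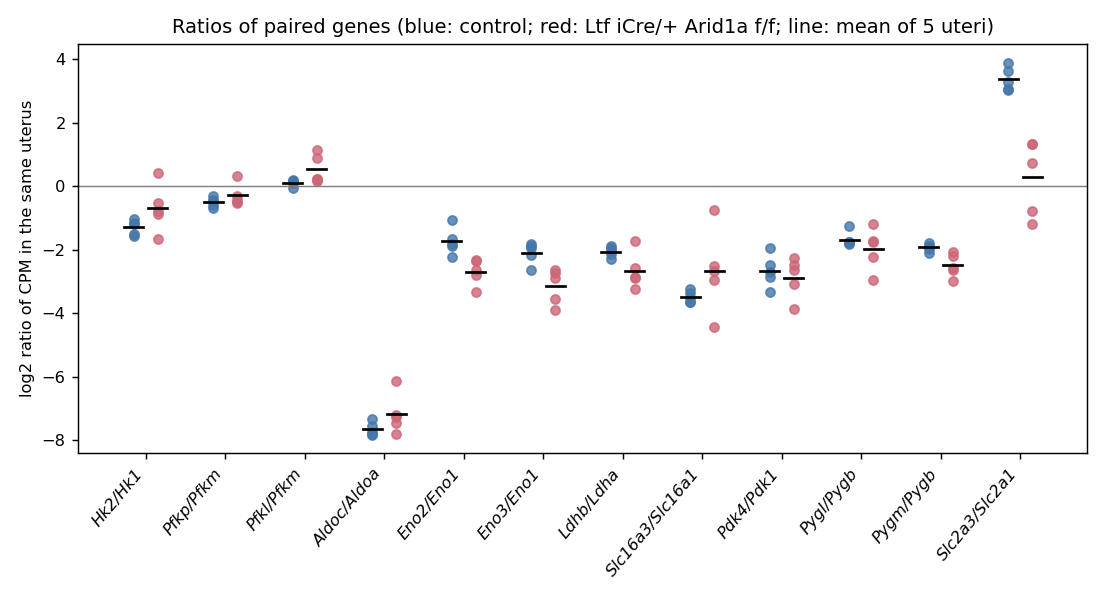
Log2 ratio of the CPM of 2 related genes in the same uterus (y axis) for the 12 pairs compared (x axis), with 5 points and a line for the mean per genotype (blue control, red Cre uteri). The genotypes do not overlap for *Slc2a3*/*Slc2a1*, *Eno2*/*Eno1* and *Eno3*/*Eno1*, and 5 of the 12 ratios had an adjusted p under 0.05.

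Cre replicates 1 and 5 often held the highest values among the Cre uteri. The highest value among the 5 Cre uteri was in replicate 5 for 14 genes and in replicate 1 for 10. The lowest was in replicate 1 for 10, in replicate 3 for 9 and in replicate 5 for 7. With Cre replicates 1 and 5 left out, 8 genes still passed the test (9.41% of all genes did). *Gbe1* was lost and *Pygl* gained (log2 fold change -0.39, adjusted p = 0.0202 in edgeR's test). Per kb, the most abundant of the 34 transcripts in control uteri were *Aldoa* (107 CPM per kb), *Ldha* (99.6), *Pkm* (86.2), *Tpi1* (77.6) and *Gapdh* (76.0), and the least abundant were *Aldoc* (0.473), *Hk3* (0.689) and *Slc16a3* (0.759). *Slc2a3* (49.2 CPM per kb) and *Slc2a12* (45.2 CPM per kb) were above *Slc2a1* (9.56 CPM per kb) in controls, whereas in Cre uteri the means were 6.96, 13.0 and 9.64 CPM per kb.

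**Figure D5:**
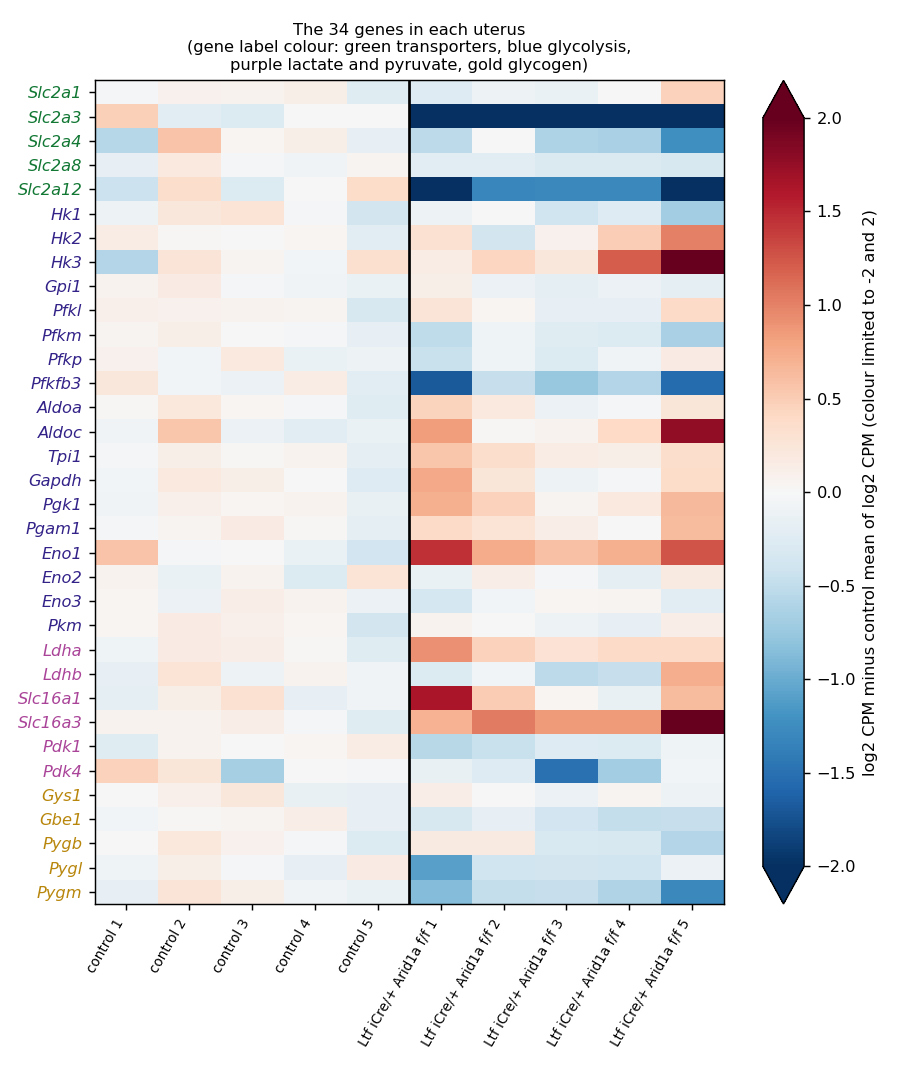
Log2 CPM of the 34 genes (rows, by role) in the 10 uteri (columns) minus the mean of the control log2 CPM, with red higher, blue lower and colours limited to -2 and 2. *Slc2a3* is at the lower colour limit in all 5 Cre uteri and *Slc2a12* in replicates 1 and 5, while *Slc16a3* (42.2 CPM) and *Hk3* (13.9 CPM) are at the upper limit in replicate 5.

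A wider list of 84 genes of sugar transport, glycolysis, gluconeogenesis, pyruvate, glycogen and pentose phosphate metabolism and their regulators was read from the same fit. Of these 81 were tested, since *Pgk2*, *Gys2* and *Ppp1r3g* were under the count filter, and 16 (19.8%) passed the test, 5 higher and 11 lower, beside 9.70% of all tested genes. The median log2 fold change of the 81 was 0.00. Of 6 gluconeogenic genes 3 fell, among them *Pck1*, which makes phosphoenolpyruvate (6.47 ± 1.68 CPM in control and 1.90 ± 0.849 CPM in Cre uteri, log2 fold change -1.77), and *Fbp2*, a fructose bisphosphatase (1.45 ± 1.2 CPM and 0.119 ± 0.0564 CPM, log2 fold change -3.59). The third gene, *Fbp1*, was under 1 CPM in all uteri and is outside the 12 genes of lowest p described here, like *Slc2a6*, *Ppp1r3b* and *Epas1*, which were named after their values were seen.

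Among the partners of lactate and pyruvate transport and oxidation, 3 of 15 fell, as did 4.51% of all tested genes. *Emb*, which encodes embigin, a chaperone of monocarboxylate transporters, was at 133 ± 16.9 CPM in control and 50.0 ± 7.61 CPM in Cre uteri (SD, n = 5 each), or -1.41 on the log2 scale (SE 0.12, edgeR adjusted p = 0.000340). Its values ranged from 111 to 149 CPM in control and from 40.8 to 60.1 CPM in Cre uteri, with no Cre uterus standing apart. *Bsg*, which encodes basigin, the other chaperone, was at 312 ± 22.5 CPM and 327 ± 22.0 CPM (log2 fold change 0.07). The kinases *Pdk2* (log2 fold change -0.57) and *Pdk3* (-0.43) fell as well.

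Of 20 tested genes in the remaining glycogen group, 2 fell and 1 rose. Of all tested genes 4.51% fell and 5.19% rose. The 2 glycogen genes that fell were *Gaa*, the lysosomal glucosidase (145 ± 24.2 CPM in control and 107 ± 6.95 CPM in Cre uteri, log2 fold change -0.44), and *Epm2a*, the glycogen phosphatase laforin (11.7 ± 0.805 CPM and 7.99 ± 1.21 CPM, log2 fold change -0.55). *Ppp1r3b*, a glycogen targeting subunit of a phosphatase, was the gene that rose. In the pentose phosphate pathway all 7 genes had log2 fold changes above 0, from 0.19 to 0.45, as had 13252 of the 25146 tested genes. Of the 7, 1 rose (14.3%, beside 9.70% of all tested genes), the lactonase *Pgls* (0.45). Without Cre replicates 1 and 5 the 7 values ran from -0.09 (*Pgd*) to 0.50 (*Pgls*). Of 12 further glycolytic genes 0 passed edgeR's test, 4 had an unadjusted p under 0.05 and DESeq2 called 1. Of 10 other sugar transporters, *Slc2a13*, a transporter of inositol, fell (15.9 ± 3.20 CPM and 8.37 ± 2.63 CPM, log2 fold change -0.93) and 1, *Slc2a6*, rose.

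Among 11 regulators 2 rose and 2 fell (36.4% called, beside 9.70% of all tested genes). *Mlxipl*, the glucose-sensing factor ChREBP, was at 1.67 ± 0.375 CPM in control and 3.68 ± 0.832 CPM in Cre uteri (log2 fold change 1.14), and *Txnip*, which limits glucose uptake, was at 664 ± 152 CPM and 383 ± 53.2 CPM (log2 fold change -0.79). *Egln3*, an oxygen sensor, was at 4.42 to 6.93 CPM in control and at 38.9, 8.40, 7.26, 10.9 and 77.5 CPM in Cre replicates 1 to 5, with a log2 fold change of 2.48 that was 0.78 without replicates 1 and 5. *Epas1*, which encodes a hypoxia-inducible factor of vessels, was the other that fell, and *Hif1a* was at 410.1 ± 32.4 CPM and 313 ± 50.2 CPM (adjusted p = 0.0530 in edgeR's test). *Emb*, *Pck1*, *Fbp2*, *Mlxipl*, *Txnip* and *Pdk3* passed the test with each uterus left out in turn, and the other 10 lost it without at least 1 uterus.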

How the data were processed

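The mRNA of 10 uteri was read in 50 bp pairs, trimmed with cutadapt 1.18 and Trim Galore 0.6.4, and aligned by the authors with STAR 2.7.3a to GRCm38, per the submitters' processing notes. The authors deposited whole-number counts per Ensembl gene for each library, without normalization. The annotation release and strand setting are not given in the sources used here. All 10 columns were matched to their samples by name, and no pair of uteri within a genotype was a duplicate (chi-square at least 36.1 per gene). Pairs across the genotypes were not checked.

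Symbols and positions were taken from GENCODE M21 (GRCm38), which held 98.8% of the identifiers. Genes averaging at least 1 count per uterus were tested in R 4.3.3 with edgeR 4.0.16 (TMM, quasi-likelihood test, genotype only, Benjamini-Hochberg adjustment over all 25146 genes, threshold 0.05). Standard errors are the log2 fold change divided by the square root of F. DESeq2 1.42.0, other filters and size factors, the replicate number as a block, and the omission of uteri were alternatives, of which the omission of Cre replicates 1 and 5 together was chosen after seeing the data. Ratios and single values were compared by a two-sided exact permutation test over 252 arrangements. Merged exons of GENCODE gave lengths, and overlaps and shared 50-base stretches were examined for the 34 genes only. The fits were tested on simulated data.

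The 34 genes, the marker sets and the wider list were chosen with earlier results of these data known, so no p was adjusted over these lists. The p-values of the ratios were adjusted over the 12 ratios. Every one of the 34 was described, those passing the test or without overlap in every uterus, and up to 12 of the wider list by lowest p. The labels give each uterus a genotype and a number, and the authors state that n counts animals. The p-values judge the difference between genotypes against the spread between uteri.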

Additional observations from a re-analysis of the deposited data

Results flagged for a closer look

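In 8 of the 68 sets of 5 uteri (34 genes in 2 genotypes), the highest or lowest uterus was farther from its nearest neighbour than Dixon's 95% limit for 5 samples allows (gap over range above 0.71). Chance alone flags about 1 in 20 such sets. Cre replicate 5 was the highest for *Slc16a3* (42.17 CPM), *Hk3* (13.93 CPM) and *Ldhb* (130.73 CPM). Cre replicate 1 was the highest for *Ldha* (616.38 CPM) and *Gpi1* (251.96 CPM). Among controls, replicate 5 was the lowest for *Pkm* (333.23 CPM) and *Pfkl* (50.23 CPM), and replicate 2 was the highest for *Aldoc* (2.22 CPM). Of these genes, *Slc16a3* and *Ldha* differed between the genotypes, and without the uterus concerned their log2 fold changes were 0.86 and 0.37.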

How the results depend on the processing

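Under the alternatives 543 values of the members' log2 fold changes were computed, of which 483 kept their sign and their side of the threshold. None of the 8 called members changed sign in any of them. DESeq2 called 4103 of all genes and 14 of the 34 members, which included 7 of the 8, as *Slc16a3* had no adjusted p there. Leaving out 1 uterus gave 1204 to 2381 of all genes, 3 to 9 members, 8 to 16 of the wider list and 0 to 7 of the 12 ratios. The lowest counts of all genes and of members came without control replicate 2, that of the wider list without control replicate 3 or 4, and that of the ratios without control replicate 5. *Slc2a3*, *Slc2a12* and *Pygm* passed in every one of these fits. With DESeq2's size factors 7 of the 34 genes, in place of 10, did not overlap, and *Tpi1*, *Eno1* and *Gbe1* then overlapped. The cause was not tested.

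Same-numbered uteri of the genotypes did not deviate together (correlations 0.034, 0.094, -0.128, 0.044 and 0.189 for numbers 1 to 5), and 1 of the 5 numbers matched itself best. With the replicate number as a block 1704 genes and 5 members passed (without *Ldha*, *Slc16a3* and *Gbe1*), and 0 ratios, since sign flips of 5 pairs give no p below 0.0625.

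Among values with no call, signs turned for *Slc2a1* (0.01, with -0.01 under the block, -0.08 without Cre replicates 1 and 5, and -0.12 to 0.07 with 1 uterus left out), *Pfkl* (0.08, with -0.10 without Cre replicates 1 and 5 and 0.00 to 0.14 with 1 left out) and *Eno3* (-0.10, with 0.01 without Cre replicates 1 and 5). With 1 uterus left out they also turned for *Eno2* (-0.08 to 0.05), *Pkm* (-0.11 to 0.01), *Ldhb* (-0.32 to 0.06), *Gys1* (-0.05 to 0.04) and the *Pdk4* to *Pdk1* ratio (-0.37 to 0.05). Every member was counted in every uterus, with *Aldoc* lowest at 89 counts.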

Other observations

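*Pcx*, which encodes pyruvate carboxylase of the gluconeogenic group, was chosen here after its values were seen. It had 206, 222, 201, 251 and 194 CPM in control replicates 1 to 5 and 192, 177 and 184 CPM in Cre replicates 2 to 4, but 13.8 and 8.28 CPM in Cre replicates 1 and 5. All Cre uteri were below all controls, and edgeR's quasi-likelihood test gave an adjusted p of 0.467. Without replicates 1 and 5 the log2 fold change was -0.22 (adjusted p = 0.189 in edgeR's test).

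*Gm1840*, a processed pseudogene with 18.6% of the 50-base stretches of *Gpi1*, was likewise lowest, among the controls, in replicate 1. It was at 4.28, 4.18, 4.00 and 3.62 CPM in control replicates 2 to 5, at 0.601 CPM in control replicate 1, and at 0.270 to 0.517 CPM in the Cre uteri. The sum of *Gpi1* and *Gm1840* was 235 ± 18.7 CPM in control and 217 ± 20.6 CPM in Cre uteri (SD, n = 5 each, exact permutation p = 0.143). These pseudogene counts separate control replicate 1 from the other controls, and the reason was not tested.

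*Slc5a1*, a sodium-coupled glucose transporter, was at 2.10 to 4.27 CPM in control and 3.12 to 22.2 CPM in Cre uteri, with an adjusted p of 0.0683 in edgeR's test. It was named after its values were seen.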
